A study of Mus musculus with 120 samples.

Results

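Dlx3, Hoxc13, Foxn1 and Msx2, which are transcription factor genes of the hair follicle, and Tchh, Padi1 and Padi3, which make trichohyalin and its modifying enzymes, were followed in 120 biopsies of an immunological niche (IN), a porous polycaprolactone scaffold that host cells fill after it is placed under the skin. They are all 7 genes on the list and were found by symbol among 55487 genes shared by both deposited count tables, of which 41759 had a count in some library. The list was drawn up with a 6-week comparison of these samples in view, in which Dlx3 and Padi3 had stood out, so the 6-week values of NOD mice are given as a description and with no test.

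INs were placed in the back of female mice at 4 weeks of age, removed and replaced weekly from 6 weeks of age, and sequenced in bulk as total RNA depleted of ribosomal RNA. NOD/ShiLtJ mice, an inbred strain in which some animals develop autoimmune diabetes spontaneously, were split into progressors (58 libraries, 10 mice), which became hyperglycemic, and nonprogressors (39 libraries, 11 mouse numbers), which did not. NOR/LtJ mice (23 libraries, 5 mice) are a related strain that shares the NOD H2g7 haplotype and stays free of diabetes. The labels name no drug and no engineered allele in any group, and all groups carried the same kind of scaffold. Progressors were sampled at 6 weeks of age, at −7, −5, −3 and −1 weeks from onset, and at onset (10 mice each, but 8 at −7 weeks), while the other mice were sampled from 6 weeks of age, then at 10, 14, 18 and 22 weeks. Progressor times were set from the onset of each mouse, so they do not correspond to single ages. Another 6 nonprogressor libraries are labelled only by 31, 38 or 108 days after implantation and entered no test. The libraries came from 2 sequencing batches, and NOR was sequenced only in batch 1 and the −7-week samples only in batch 2, so levels were compared within a batch or with the batch in the model. Total counts per library ran from 4722396 to 56185434 in batch 1 and from 29029239 to 43880986 in batch 2. A gene with no count could have had up to 3 counts at the precision of counting alone, which is 0.0534 to 0.635 CPM (counts scaled to a library total of 1e6) depending on the library, with a median of 0.0896. One NOR library, that of mouse 5 at 18 weeks, had 85.7% of its counts on 1 gene and only 1233373 counts on all others, against at most 30.5% on 1 gene elsewhere.

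The hair follicle is a skin appendage that cycles through growth, regression and rest. In a growing follicle, matrix cells at the base of the bulb differentiate into the hair shaft and the inner root sheath that surrounds it. Trichohyalin is the main granule protein of the inner root sheath and of the shaft medulla, peptidylarginine deiminases convert its arginines to citrulline, and transglutaminases then cross-link it into a hard scaffold. Dlx3, Msx2, Hoxc13 and Foxn1 act in the matrix and the differentiating shaft, and Hoxc13 and Foxn1 are needed for the keratin programme of a normal hair. Padi1 and Padi3 also act in the upper epidermis, and Dlx3 and Msx2 act in other ectodermal organs, the mammary gland among them for Msx2.

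On GRCm38, Tchh lies on chromosome 3 (93442330 to 93449077, plus strand) and overlaps an antisense noncoding gene, Gm37245. Padi3 (chromosome 4, 140785365 to 140810648) and Padi1 (chromosome 4, 140812983 to 140845778) are neighbouring paralogs on the minus strand, and Padi1 overlaps the noncoding gene Gm13032. Foxn1 (78357577 to 78386558, minus strand) and Dlx3 (95120119 to 95125296, plus strand) are both on chromosome 11, Msx2 is on chromosome 13 (53466884 to 53473074, minus strand) and Hoxc13 is on chromosome 15 (102921103 to 102928814, plus strand). Whether counting used strand is not given in the sources used here, so reads of Tchh and Padi1 cannot be told apart from those of their antisense partners, and reads that the Padi paralogs share may have been split between them.

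The 250 bases before the RefSeq start of 4 of these genes are shown because the genes below move together and because Dlx3 and Msx2 are homeodomain proteins, whose class binds the core TAATTA, while Foxn1 binds sites with the core ACGC. Both motifs were searched on both strands of the RefSeq windows (GRCm38.p6), and TAATTA is its own reverse complement. A window was given for 5 of the 7 genes, and Dlx3 and Hoxc13 had none. The window of Msx2 (chr13:53472781-53473030, minus) lies inside the Msx2 coordinates given above, so it overlaps annotated gene sequence, and it is not printed. Capitals mark TAATTA, and each sequence runs 5′ to 3′ on the strand of its gene (Tchh chr3:93442080-93442329, plus; Padi3 chr4:140810649-140810898, minus; Padi1 chr4:140845779-140846028, minus; Foxn1 chr11:78386609-78386858, minus).
Tchh: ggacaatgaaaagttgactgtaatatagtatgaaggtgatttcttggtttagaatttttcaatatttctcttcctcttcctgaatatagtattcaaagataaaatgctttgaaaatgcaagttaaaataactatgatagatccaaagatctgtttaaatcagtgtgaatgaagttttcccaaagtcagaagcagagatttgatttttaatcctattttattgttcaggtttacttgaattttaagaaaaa
Padi3: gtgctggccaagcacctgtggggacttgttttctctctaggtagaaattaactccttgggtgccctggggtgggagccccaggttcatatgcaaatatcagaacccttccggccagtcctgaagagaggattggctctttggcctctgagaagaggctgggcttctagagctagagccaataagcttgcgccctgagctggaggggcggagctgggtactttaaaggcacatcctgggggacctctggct
Padi1: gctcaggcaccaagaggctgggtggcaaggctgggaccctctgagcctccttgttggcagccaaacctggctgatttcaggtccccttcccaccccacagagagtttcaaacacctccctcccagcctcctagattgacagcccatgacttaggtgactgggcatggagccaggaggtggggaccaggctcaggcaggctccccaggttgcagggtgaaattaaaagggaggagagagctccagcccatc
Foxn1: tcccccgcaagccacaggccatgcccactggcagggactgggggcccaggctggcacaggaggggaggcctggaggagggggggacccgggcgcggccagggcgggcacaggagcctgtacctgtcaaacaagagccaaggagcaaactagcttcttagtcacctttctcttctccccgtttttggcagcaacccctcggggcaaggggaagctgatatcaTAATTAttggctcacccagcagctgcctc
TAATTA was found in the windows of Foxn1 (29 to 24 bases before the start) and Msx2 (187 to 182 bases before the start), and it occurs in 1590 of 32851 RefSeq windows (4.84%). ACGC, on either strand, was found only in the window of Msx2, at 2 places, and in 49.8% of all windows. A match is a run of letters and was not tested for binding, and a window without one holds no information on the factor.

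All 7 genes had their highest values in the same 3 of 120 libraries, all of progressors: mouse 2 at −3 weeks (batch 1), mouse 7 at onset (batch 2) and mouse 10 at −5 weeks (batch 2). These libraries were picked out by their values, so what follows about them is a description without a test. Tchh, the granule protein, reached 2583, 2178 and 292.5 CPM there, in that order, against 79.7 CPM in the next library and a median of 1.58 CPM over the other 117. Padi3, the deiminase of the hair shaft and sheath, reached 74.7, 142 and 17.9 CPM, against a next value of 2.14 and a median of 0.206. Padi1, its neighbour and an enzyme of the upper epidermis and the follicle, reached 15.6, 43.2 and 6.41 CPM, against 2.93 and a median of 0.133. In each of these enzymes and in their substrate, the library of mouse 10 was several-fold below the other two but still above every remaining library.

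The transcription factors were also lowest in mouse 10 among the 3 libraries, while mice 2 and 7 changed places between genes. Dlx3, a homeobox factor of the matrix and shaft, had 70.9, 81.7 and 9.67 CPM in the 3 libraries, then 2.38 CPM in the next and a median of 0.244. Hoxc13, the homeobox factor of shaft keratin genes, had 25.9, 27.0 and 3.79 CPM, then 0.679, and Foxn1, the forkhead factor lost in nude mice, had 15.7, 33.2 and 4.94 CPM, then 0.518. The median of both over the other 117 libraries was 0, since Hoxc13 had no count in 92 libraries and Foxn1 none in 79. Msx2, a homeobox factor of the matrix, had 29.2, 28.2 and 5.93 CPM, and its next value, 4.62 CPM, was the closest to the 3 libraries of all 7 genes. Of the CPM of each gene summed over all 120 libraries, the 3 libraries held 93.0% for Hoxc13, 92.9% for Foxn1, 90.5% for Tchh, 85.2% for Padi3, 77.6% for Dlx3, 66.1% for Padi1 and 56.2% for Msx2. In bulk RNA, more cells of a type and more RNA per cell cannot be told apart.

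**Figure D1:**
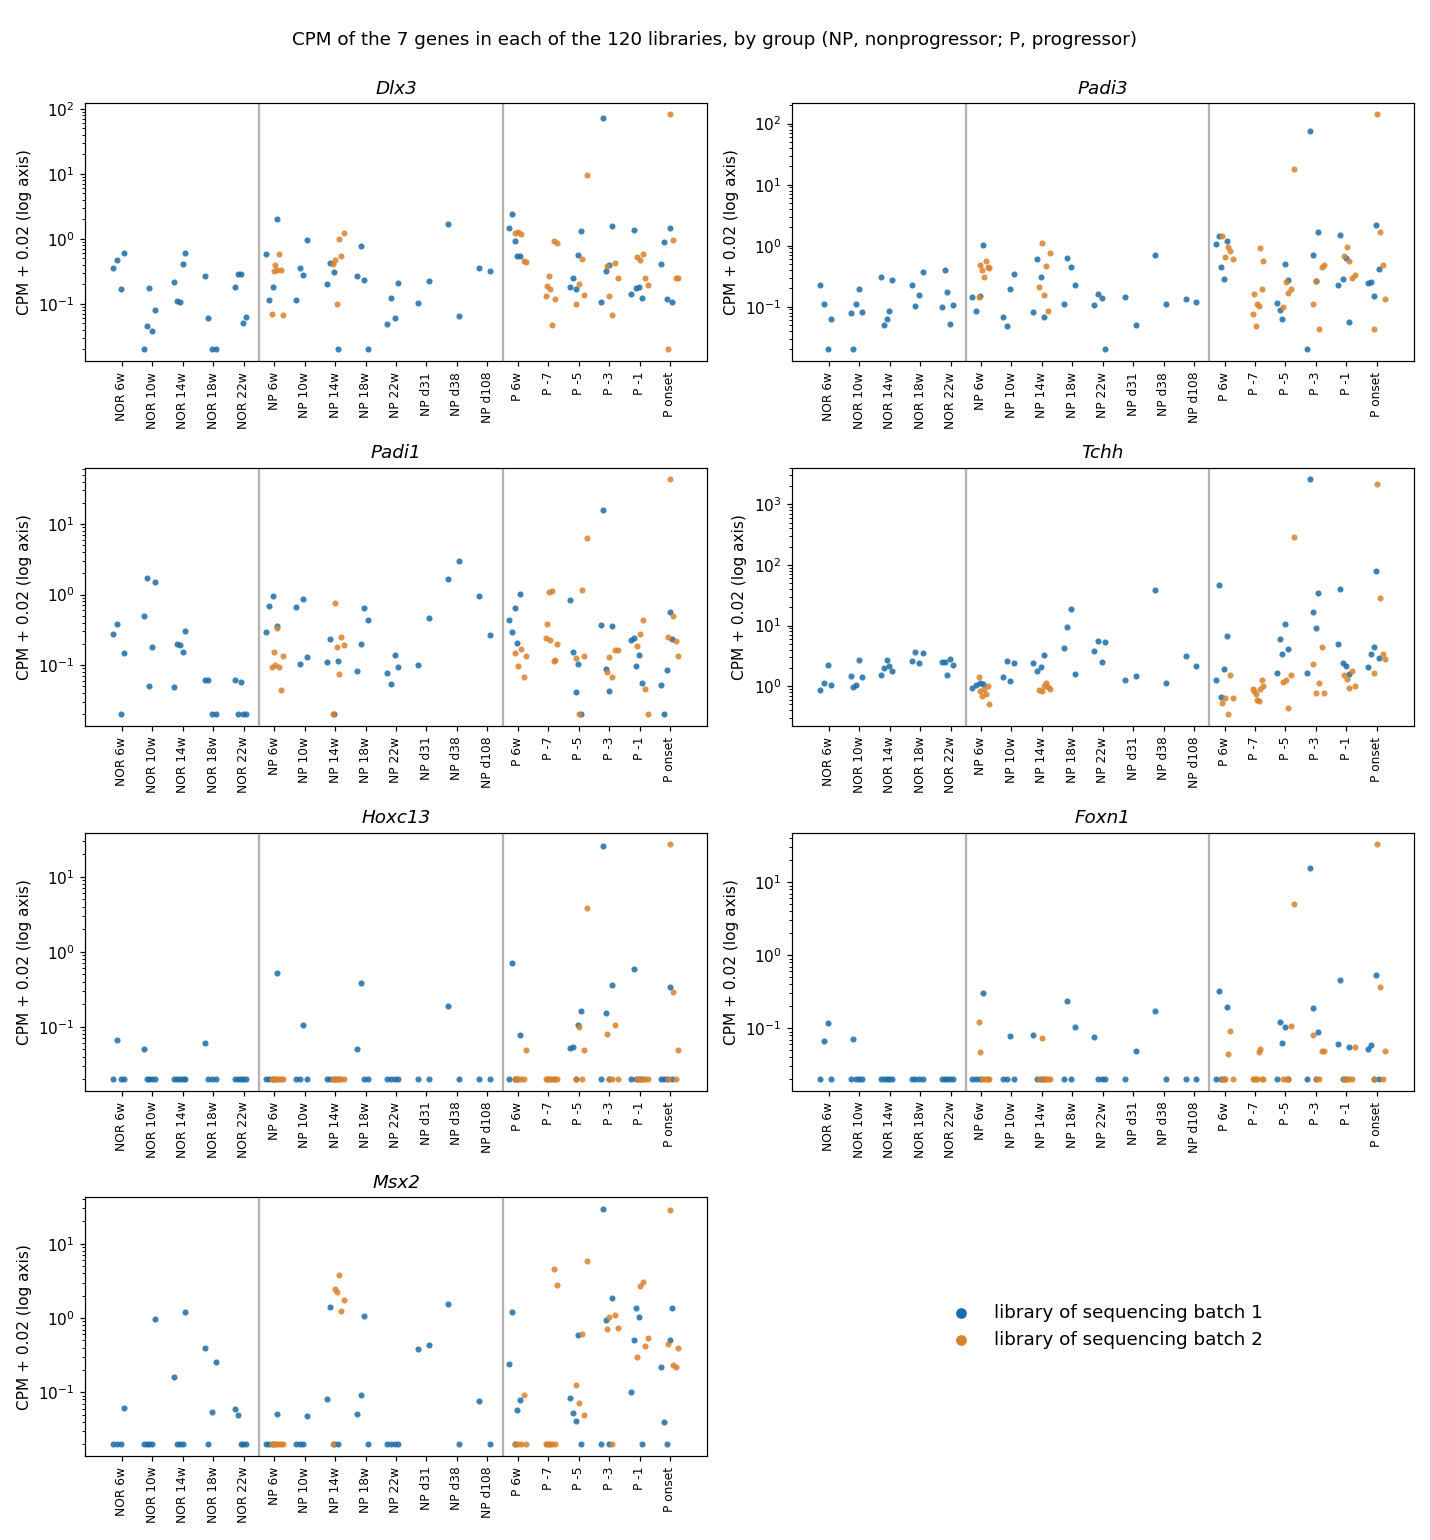
CPM plus a small constant of each of the 7 genes (log axis) in every library, by group and time; each point is a library, coloured by sequencing batch (NP, nonprogressor; P, progressor; w, weeks of age; d, days after implantation; numbers after P, weeks from onset). The 3 progressor libraries stand above all others in each panel, at 292.5 to 2583 CPM for Tchh, where the next library has 79.7.

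Per kilobase of exon, which allows levels of different genes to be compared, Tchh led in each of the 3 libraries, with 443.5, 374.0 and 50.2 CPM per kb. Padi3 (21.7, 41.1 and 5.18 CPM per kb) and Dlx3 (27.2, 31.3 and 3.71) came next, and Padi1 was the lowest in mouse 2 (4.17). Counts of Padi1 were 0.209, 0.305 and 0.359 of those of Padi3 in the 3 libraries. Foxn1 had 0.605 of the counts of Hoxc13 in mouse 2 but 1.23 and 1.30 times as many in mice 7 and 10. Tchh counts were 34.6 times those of Padi3 in mouse 2 and 15.4 and 16.4 times in the other two, so mouse 2 differed most from the others in the balance between granule protein and enzyme.

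The same 3 libraries were the highest for genes of the growing follicle that the list did not contain. All 13 hair shaft genes measured, keratins and shaft proteins such as Dsg4 and S100a3, had the 3 libraries as their top 3, with summed levels of 979, 3105 and 779 CPM against 0.110 to 50.5 CPM in the other 117 libraries. Of 11 inner root sheath genes, 10 were highest in one of the 3, and Gata3 was not. The 8 inner root sheath keratins summed to 2774, 4735 and 648 CPM there and to at most 98.5 CPM elsewhere, with Krt71, a sheath keratin, at 1179, 2083 and 322 CPM against at most 42.3. Shaft and sheath keratins thus split from Tchh in 1 respect: mouse 7 exceeded mouse 2 in the sums of both keratin groups, while Tchh was higher in mouse 2.

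Melanocyte markers behaved alike: all 5 were highest in one of the 3 libraries, with sums of 134, 196 and 15.4 CPM against at most 3.43 CPM elsewhere. Among relatives of trichohyalin, Crnn (cornulin, 38.3, 68.7 and 7.37 CPM) was high in the 3 libraries, while Flg2 (filaggrin 2, 0.588, 0.245 and 2.59 CPM) was highest in other libraries. Of the other deiminases, Padi4 had 6.64, 23.3 and 4.01 CPM, and Padi2 (8.61, 11.6 and 12.7 CPM) was highest elsewhere. Of 30 other follicle regulators, 17 were highest in one of the 3 libraries, among them Lef1, the Wnt effector of the matrix (19.8, 29.3 and 5.05 CPM), and Shh, the matrix signal (5.29, 4.38 and 0.427 CPM). Hoxc12 and Foxi3 had no count in any of the 3.

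Epidermis markers were mixed in the 3 libraries. Their sums were 312.9, 359.5 and 102.7 CPM, against a median of 15.7 and a highest value of 727.4 in the other 117, and that of nonprogressor mouse 4 at 6 weeks was the only one above mice 2 and 7. Krt5 (135, 123 and 34.3 CPM) and Krt14 (61.4, 63.4 and 22.6 CPM), the basal keratins that epidermis and outer root sheath share, were far above their medians elsewhere (0.294 and 0.208) but below their highest values elsewhere (178.6 and 106.2). The late markers Lor (0.450, 0.163 and 1.23 CPM) and Krt1 (0.623, 0.0815 and 0.801 CPM) were low there, though above their medians of 0 and 0.0281, and reached 20.4 and 74.4 CPM in other libraries. In all, 4 of 11 epidermis markers were highest in one of the 3. The sebaceous list had 2 of 5 markers highest in one of the 3 and dermal papilla 1 of 5, while mammary epithelium (8 genes), macrophage (5), fibroblast (5), adipocyte (4) and skeletal muscle (4) markers had none. Lists of macrophage markers (5473, 7586 and 6056 CPM, other libraries 369 to 10424) and fibroblast markers (25290, 6476 and 22512 CPM, others 8467 to 85738) were abundant in all 3, though fibroblast markers in mouse 7 were below every other library. The part of other cell types in the values of the 7 genes was not tested.

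**Figure D2:**
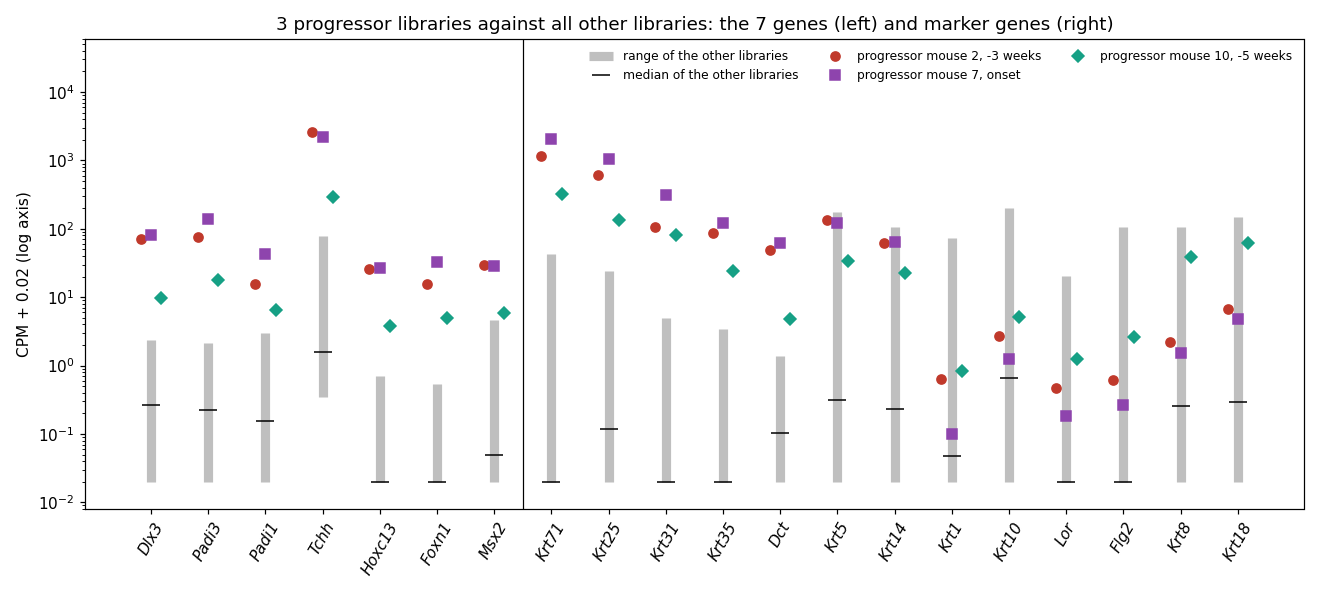
CPM plus 0.02 (log axis) of the 7 genes (left) and of marker genes (right) in 3 progressor libraries (coloured points), set against the range (grey bars) and median (black lines) of the other 117 libraries. The 7 genes, the sheath keratins Krt71 and Krt25, the shaft keratins Krt31 and Krt35 and the melanocyte enzyme gene Dct lie above the grey range, and the epidermal markers Krt1 and Lor lie inside it.

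In each of the 3 mice the high level was met at a single biopsy. In mouse 2, Tchh was at 46.2 CPM at 6 weeks of age, 0.821 at −7 weeks, 5.90 at −5, 2583 at −3, 40.7 at −1 and 3.39 at onset. The 6-week and −1-week values of this mouse were high as well, but each was over 10 times below its −3-week value. In mouse 7 the 5 biopsies before onset had 0.618, 0.887, 1.25, 0.742 and 1.28 CPM, and onset 2178. In mouse 10 the −5-week biopsy had 292.5 CPM, and the 5 others between 0.625 and 2.76. Every biopsy was a separate scaffold at a rotating site of the back, so these series follow the animal and not 1 scaffold.

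**Figure D3:**
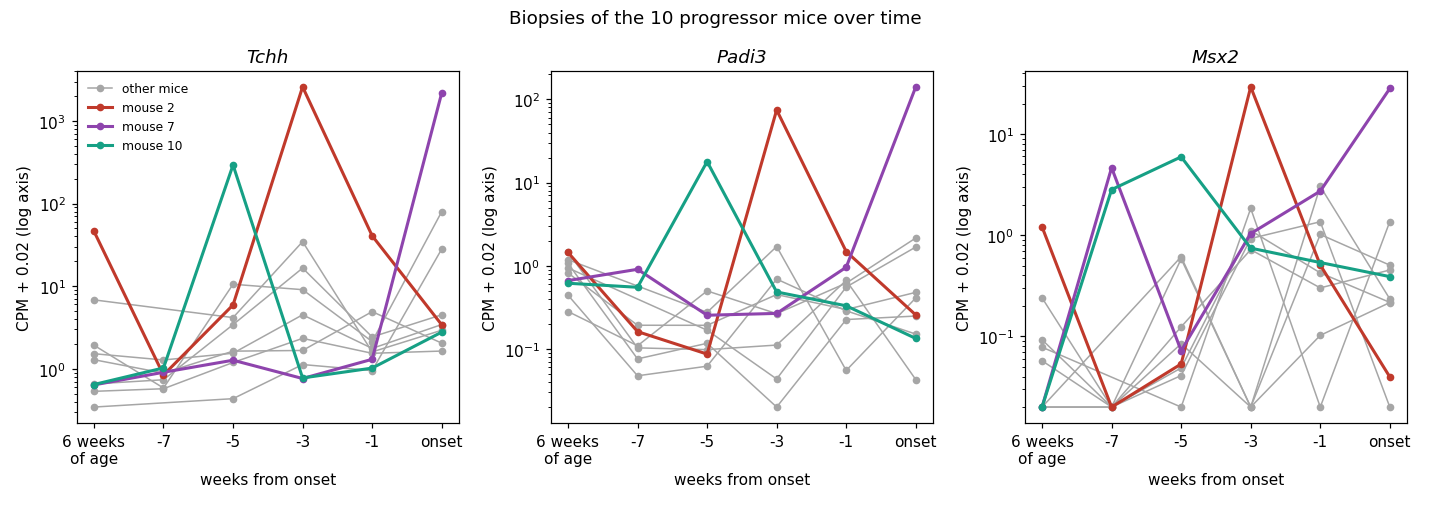
CPM plus a small constant (log axis) of Tchh, Padi3 and Msx2 in the 10 progressor mice at 6 weeks of age and by weeks from onset, 1 line per mouse with mice 2, 7 and 10 in colour. Tchh peaks once in each of the 3, at −3 weeks, onset and −5 weeks, and the later onset values of mice 2 (3.39 CPM) and 10 (2.76) lie among those of the other mice.

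Below this level, Tchh had a background that differed between the libraries of the 2 batches. Groups and ages also differ between the batches, so the part of the batch cannot be told apart from theirs. In nonprogressors at 6 weeks of age, Tchh was at 0.926 to 1.12 CPM in batch 1 and 0.486 to 1.41 in batch 2. In the 39 of 74 batch 1 libraries with no count of Krt71, Tchh had 0.635 to 6.80 CPM with a median of 2.35, and in the 21 of 46 such libraries of batch 2 it had 0.324 to 1.50 with a median of 0.810. No library had a Tchh count of 0. In batch 1 the highest of these values, 6.80 CPM, was that of progressor mouse 5 at 6 weeks. Its hair shaft genes summed to 6.16 CPM, against a median of 0.787 over the 117 libraries outside the 3. The highest of these values in each batch served as a limit, set after the values were seen. In CPM of the library total, no NOR library (of 23) and no batch 2 nonprogressor (of 13) lay above it. The NOR library of mouse 5 at 18 weeks, with most counts on 1 gene, would be above it on other scales: its 30 Tchh counts are 3.48 CPM of the total, but 24.3 when scaled to its other counts and 30.3 CPM after TMM scaling. Above it were 3 of 26 nonprogressor libraries of batch 1 (9.59 to 38.3 CPM), 8 of 25 progressor libraries of batch 1 (9.05 to 2583) and 11 of 33 progressor libraries of batch 2 (1.52 to 2178), and each had a Krt71 count by construction, from 0.0563 CPM upwards. The 11 were all taken at −5 weeks or later, whereas the batch 2 nonprogressors were sampled only at 6 and 14 weeks of age. Age and outcome therefore cannot be told apart in batch 2, and its lowest passing value, 1.52 CPM, is close to the limit of 1.50.

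**Figure D4:**
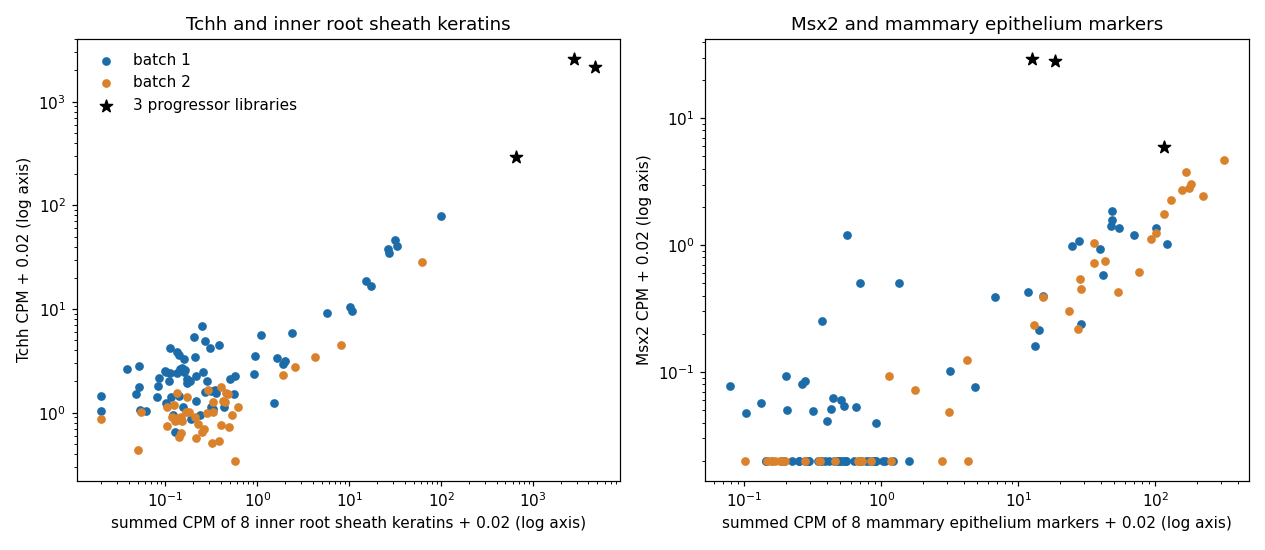
Tchh (vertical axis) against 8 summed inner root sheath keratins (left) and Msx2 against 8 summed mammary epithelium markers (right), in CPM plus 0.02 on log axes, 1 point per library coloured by batch, with 3 progressor libraries as stars. The 3 marked libraries are at the upper end of the left panel, with keratin sums of 648 to 4735 CPM, and hold the highest Msx2 values of the right panel (5.93 to 29.2 CPM), in which outside them Msx2 is higher where the mammary markers are higher.

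Msx2 was also present outside the 3 libraries, in batch 2 with little Tchh. Apart from the 3 libraries it reached 1 CPM in 8 of 73 batch 1 libraries and 11 of 44 batch 2 libraries. Of the 8, that of nonprogressor mouse 3 at 18 weeks rests on 5 counts in the library with the lowest total. In the 11 of batch 2, Tchh was at 0.742 to 4.48 CPM and Krt71 at most at 3.27 CPM, while the summed mammary epithelium markers, milk protein and luminal keratin genes, were at 35.9 to 315.8 CPM, above the 0.0810 to 4.29 CPM of the 19 batch 2 libraries with no Msx2 count. The 8 of batch 1 were mixed: Tchh was at 1.76 to 46.2 CPM, Krt71 reached 14.1 CPM, and the mammary sum was at 0.544 to 101.7 CPM, which overlapped with the 0.125 to 1.57 CPM of the 35 batch 1 libraries with no Msx2 count. Over libraries, Spearman's rho of Msx2 with the mammary sum was 0.559 in batch 1 (n = 74) and 0.918 in batch 2 (n = 46), and 0.545 (n = 73) and 0.943 (n = 44) without the 3 libraries. These libraries share mice, depth and tissue source, and the coefficients are descriptive. The 3 libraries were not the highest for the mammary list, with 12.5, 18.4 and 114.7 CPM, and Csn2 (beta-casein) had 0, 0.0544 and 0.214 CPM there.

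Dlx3 and Padi3 varied together also at low levels. Their rho was 0.593 in batch 1 and 0.771 in batch 2 over all libraries, and 0.576 and 0.739 without the 3. Both were also higher where the summed epidermis markers were higher (rho 0.648 and 0.442 for Dlx3, 0.614 and 0.608 for Padi3 in batches 1 and 2). Padi1 had rho 0.587 and 0.534 against the sum of the other deiminases, and Hoxc13 and Foxn1, mostly at 0, had 0.677 and 0.624 with each other. The genes whose levels followed the mean of the 7 most closely in both batches, among 19901 genes, were Dsp (rho 0.800 and 0.782) and Pkp1 (0.777 and 0.741), which build desmosomes, Grhl1 (0.701 and 0.729), an epithelial transcription factor, Muc15 (0.693 and 0.758) and Lratd1 (0.692 and 0.708). These are ranks over 74 and 46 libraries that share mice and depth.

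At 6 weeks of age, the contrast that drew attention to these genes, the values are given with no test. Dlx3 was at 0.426 to 2.38 CPM (median 1.03, n = 10) in progressors and at 0.0463 to 1.96 (median 0.310, n = 11) in nonprogressors, and the ranges overlapped. Padi3 was at 0.262 to 1.44 (median 0.861) against 0.0645 to 0.997 (median 0.381). In batch 2 all 5 progressors (0.596 to 1.44) were above all 7 nonprogressors (0.126 to 0.541), which was so for 0.0456% of all genes tested in this direction, and nothing is read from this count since the contrast chose the genes. The highest nonprogressor value of both genes came from mouse 4 of batch 1 (1.96 and 0.997 CPM), whose library also had 178.6 CPM of Krt5 and 20.4 CPM of Lor. Without that library the nonprogressors reached 0.565 CPM of Dlx3 and 0.541 of Padi3, and 6 and 8 of 10 progressors lay above them all. Tchh (medians 0.951 and 0.926 CPM) and Padi1 (0.168 and 0.135) had medians close to each other, and the only progressor Tchh values above 2 CPM were those of mice 2 (46.2) and 5 (6.80).

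From 6 weeks to −7 weeks Dlx3 and Padi3 were lower in 7 of 8 mice that had both biopsies, Tchh in 4 of 8 and Padi1 in 1 of 8. Since the 6-week values drew attention to Dlx3 and Padi3, nothing is read from their later values being lower, and in 4 of the mice the batch changed as well. In the 4 mice with both biopsies in batch 2, Dlx3 and Padi3 were lower in 3, Tchh in 1 and Padi1 in 0. At −7 weeks, Dlx3 was at 0.0277 to 0.918 CPM and Padi3 at 0.0275 to 0.887, with medians of 0.159 and 0.115. Tchh at −7 weeks was at 0.553 to 1.26 CPM in all 8 mice, and no mouse had a Hoxc13 count.

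Strains were compared after 6 weeks of age in batch 1, which leaves out the −7-week biopsies, with the biopsies of each mouse summed (5 NOR mice against 5 progressors and 4 nonprogressors). Tchh was at 1.76 to 2.53 CPM in NOR mice (median 1.91), 2.73 to 4.61 in nonprogressors (median 2.98) and 2.39 to 574 in progressors (median 10.9). No nonprogressor overlapped with NOR, which was so in this direction for 1.77% of all genes tested, whereas 1 progressor did. Dlx3 was at 0.0947 to 0.228 CPM in NOR, 0.133 to 0.395 in nonprogressors and 0.172 to 16.1 in progressors, and all ranges overlapped.

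With edgeR's quasi-likelihood test across 22628 genes, 0 of the 5 genes that passed the filter on low counts were called between NOD and NOR at an adjusted p under 0.05 (8.46% of all genes were called, 3.88% as higher in NOD). The log2 differences were 5.04 ± 1.69 (SE, adjusted p = 0.0818) for Tchh, 3.82 ± 1.38 (0.105) for Dlx3, 3.97 ± 1.47 (0.113) for Padi3, 2.46 ± 1.43 (0.332) for Msx2 and 0.83 ± 0.94 (0.655) for Padi1. Hoxc13 and Foxn1 had too few counts to pass the filter in this comparison and in those that follow, and were fitted only in some alternatives, such as without the filter. The library of mouse 2 at −3 weeks set these values. It was left out only after its values were seen, so calls without it, here and in the follicle lists, are descriptive. Without it Tchh was 1.94 ± 0.55 higher in NOD and was called (adjusted p = 0.0455, with 7.7% of all genes called and 3.53% as higher), Dlx3 was 1.52 ± 0.47 (0.0658) and Padi1 turned to −0.69 ± 0.56 (0.521). Tchh was also called for nonprogressors alone against NOR, a difference of 0.78 ± 0.16 (adjusted p = 0.0229, with 5.05% of all genes called and 2.37% as higher), and for progressors alone, 5.87 ± 1.52 (0.0496, with 5.8% called and 2.8% as higher).

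Other follicle genes were read from the same fit between strains. Of 43 genes of the follicle lists that passed the filter, 2 were called, against 8.46% of all genes, so nothing is read from the number. They were Hr, the hairless corepressor (0.63 ± 0.19, adjusted p = 0.0492), and Flg2 (5.81 ± 1.54, 0.0301), both by edgeR and both higher in NOD. Of the marker lists, Rspo3, a dermal papilla ligand (−1.10 ± 0.26, 0.0153), and Csf1r, the macrophage receptor (−0.28 ± 0.06, 0.0126), were called as lower in NOD. Without the library of mouse 2, 9 of 43 follicle genes were called, against 7.7% of all genes. Among them were the sheath keratins Krt71 (7.84 ± 1.98, 0.0253) and Krt25 (4.27 ± 1.08, 0.0253) as higher, and Padi4, the deiminase of granulocytes, as lower (−2.51 ± 0.40, 7.629e-04).

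Progressors at −5, −3, −1 weeks and onset were compared with nonprogressors from 10 weeks of age in the same way, with 10 mice each and the batch as a term. The −7-week biopsies were left out, so that each mouse lay in 1 batch. None of 23833 genes was called by edgeR (0%), while 2238 had an unadjusted p under 0.05 edgeR with DESeq2-style size factors called 3 and DESeq2 called 131. The log2 differences of the 5 genes tested were all positive: 6.02 ± 1.18 for Tchh (adjusted p = 0.0677), 4.17 ± 1.03 for Padi3 (0.197), 3.24 ± 0.95 for Dlx3 (0.322), 2.68 ± 0.89 for Padi1 (0.422) and 1.65 ± 0.97 for Msx2 (0.590). DESeq2 put 3 of them past the threshold: Tchh (adjusted p = 9.719e-09), Padi3 (7.713e-04) and Dlx3 (0.0201). Without the 3 libraries Tchh was 1.67 ± 0.36 (0.275) in edgeR, Padi3 was 0.39 ± 0.44, and Dlx3 (−0.20 ± 0.45), Padi1 (−0.38 ± 0.47) and Msx2 (−0.24 ± 0.73) changed direction. The Tchh difference was 5.09 ± 1.69 within batch 1 (adjusted p = 0.943) and 7.07 ± 1.53 within batch 2 (0.247). Per mouse, Tchh in batch 2 was at 0.819 to 1.12 CPM in 6 nonprogressors and at 1.63 to 547 in 5 progressors from −5 weeks on, and at 1.09 to 7.67 in progressors once the 3 libraries were left out. With all libraries these ranges did not overlap, but the share of all genes with such a gap was not computed, so nothing is read from it. Each batch 2 nonprogressor was represented by 1 library, its 14-week biopsy, and each batch 2 progressor by 4. Age, number of biopsies and outcome therefore cannot be told apart there.

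**Figure D5:**
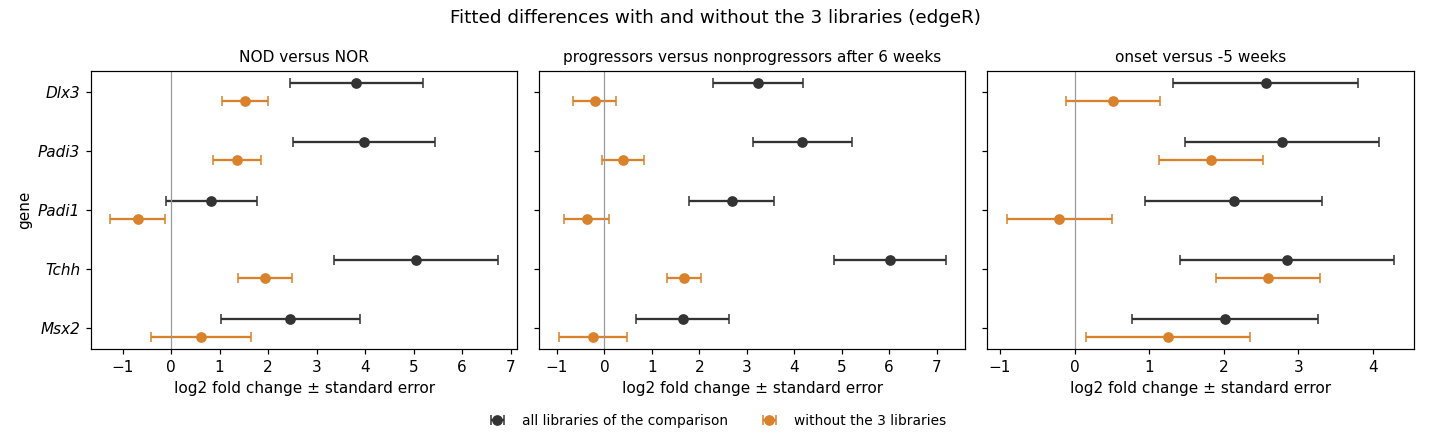
Fitted log2 differences (edgeR, points with SE as bars) of 5 genes in 3 comparisons, with all libraries and without the 3 libraries. Tchh stays above 0 in each panel, and in the comparison of progressors with nonprogressors Dlx3, Padi1 and Msx2 move from 1.65 to 3.24 with all libraries to between −0.38 and −0.20 without the 3.

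Over the 5 progressor times after 6 weeks (48 libraries, batch as a term), an F test called Tchh (adjusted p = 0.0125), Padi3 (0.0225) and Dlx3 (0.0239), against 4.49% of 20972 genes called. Padi1 (0.0643) and Msx2 (0.301) were not called. The medians of Tchh at −7, −5, −3, −1 weeks and onset were 0.844, 2.51, 3.40, 1.66 and 3.40 CPM. The −7-week libraries are all of batch 2 and the later ones of both batches. In batch 2 alone the medians were 0.844, 1.25, 1.11, 1.28 and 3.41 CPM. With both batches, the ranges overlapped among all times except between −7 weeks and onset (0.553 to 1.26 against 1.62 to 2178), where the batches differ in part. The share of all genes with such a gap was not computed, so nothing is read from it. Within batch 2 Tchh (6.60e-04), Padi3 (0.00323), Dlx3 (0.00467) and Padi1 (0.00674) were called, against 8.66% of all genes. With the mouse as a block none was called, with adjusted p of 0.310 for Tchh, 0.516 for Padi3 and 0.535 for Dlx3. In that fit 248 of all 22461 genes were called. Without the 3 libraries Tchh was still called (0.0226, with 4.11% of all genes called), and Dlx3 (0.967), Padi3 (0.267) and Padi1 (0.531) were not. The 3 libraries were left out only after their values were seen, so calls without them, here and below, are descriptive.

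In the same fit 22 of 46 follicle list genes that passed the filter were called over time, against 4.49% of all genes. They included 9 of 11 shaft genes and 8 of 10 inner root sheath genes, led by Krt25 (adjusted p = 0.0116), Krt27 (0.0116), Flg2 (0.0133) and Krt71 (0.0146). Of 21 other regulators tested, Runx1, Ovol1 and Lef1 were called. Among markers of other cells, Awat1, a sebaceous wax enzyme (0.00267), Dct, a melanocyte enzyme (0.0102), and Krt1 (0.0162) were called as well. With the mouse as a block, 0 of 59 follicle genes tested were called, where 248 of all 22461 genes were. At that share, 0 of 59 says little about these genes. Krt71 came closest among those named (0.0559), while Awat1 kept its call (0.0352). Without the 3 libraries 6 of 38 follicle genes were called, against 4.11% of all genes. They were 3 sheath keratins (Krt27, 0.00739, Krt25, 0.00919, and Krt71, 0.00980) and 3 shaft keratins (Krt33a, Krt86 and Krt81).

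Onset was set against −5 weeks, the earliest time counted from onset at which both batches hold all mice. Tchh at onset ranged from 1.62 to 2178 CPM and at −5 weeks from 0.415 to 292.5, and the ranges overlapped. None of the 5 genes was called (1.74% of all genes were called, 1.15% as higher at onset), with log2 differences of 2.85 ± 1.43 for Tchh (adjusted p = 0.276), 2.79 ± 1.30 for Padi3 (0.235), 2.56 ± 1.24 for Dlx3 (0.254), 2.13 ± 1.18 for Padi1 (0.330) and 2.02 ± 1.24 for Msx2 (0.385). Each of these times holds 1 of the 3 libraries. They were left out only after their values were seen, so calls made without them are descriptive. Without them Tchh was 2.59 ± 0.70 higher at onset and was called (0.0399, with 2.03% of all genes called and 1.26% as higher), together with Krt27 (5.54 ± 1.34, 0.0275), Krt25 (4.45 ± 1.10, 0.0277) and Krt71 (4.89 ± 1.33, 0.0437). Awat1 was lower at onset with all libraries (−1.47 ± 0.37, 0.0290) and without the 3 (−1.50 ± 0.39, 0.0332). Within batch 1 the Tchh difference was 1.83 (adjusted p = 0.550), and with the mouse as a block 2.42 ± 1.68 (0.492), where Awat1 was −1.41 (0.0428).

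In nonprogressors after 6 weeks, 1 of the 5 genes tested, Tchh, was called over age. In batch 1 its CPM were 1.41, 2.55, 1.22 and 2.35 at 10 weeks of age, 2.38, 1.76, 2.01 and 3.27 at 14 weeks, 4.21, 9.59, 18.6 and 1.54 at 18 weeks and 3.79, 5.58, 2.50 and 5.36 at 22 weeks. In CPM of the library total the 18-week values spread widest. The 18.6 CPM of mouse 3 are 88 counts in the library with the lowest total of all, 4722396. With TMM scaling over all 120 libraries, the 22-week values became 4.53, 7.53, 4.14 and 10.6 CPM, and mouse 4 at 22 weeks then exceeded mouse 2 at 18 weeks (9.74), while mouse 3 at 18 weeks stayed highest (17.1). The test used TMM factors computed on its own 22 libraries. The F test over 4 ages (22 libraries, batch as a term) gave an adjusted p of 0.0209, against 5.28% of 20526 genes called. It was 0.154 with the mouse as a block, 0.0744 within batch 1, and 0.0746, 0.124 and 0.0958 without mice 1, 2 and 3 in turn. Msx2 (0.192), Padi1 (0.420), Padi3 (0.698) and Dlx3 (0.706) were not called. Among the follicle lists 3 of 27 genes were called, Ptch1 (0.0102) and Sox9 (0.0326), of hedgehog response and outer root sheath, and Vdr, the vitamin D receptor (0.0483), and of the markers Dcn (0.00598), Pdgfra (0.0262), Scd3 (0.0362) and Krt14 (0.0484). With the mouse as a block Sox9 (0.0296), Ptch1 (0.0342) and Dcn (0.0440) kept their calls, and Vdr (0.121), Pdgfra (0.118), Scd3 (0.164) and Krt14 (0.177) did not.

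NOR mice took no part in the choice of the genes, and only 3 of them passed the filter there. Padi1 was called over age (F test, 23 libraries, adjusted p = 0.00584, 8.24% of 19628 genes called). Its CPM were 0.253, 0.368, 0 and 0.126 at 6 weeks, 0.480, 1.70, 0.0309, 0.160 and 1.48 at 10 weeks, 0.0281, 0.178, 0.175, 0.132 and 0.280 at 14 weeks, 0.0416, 0.0404, 0 and 0 at 18 weeks, and 0.0404, 0, 0.0384, 0 and 0 at 22 weeks. The highest values were those of mice 2 and 5 at 10 weeks, and at 18 and 22 weeks no library had more than 1 count. The call held with the mouse as a block (0.0181), while without mouse 1 it was 0.0512 and without mouse 5 0.0861, and without mouse 2 Padi1 no longer passed the filter. The medians of Tchh at 6 and 22 weeks were 1.06 and 2.46 CPM. Tchh was not called in this fit (0.0519), and Dlx3 was not called either (0.108). Over 10 alternative settings of the test over age, the adjusted p of Tchh ran from 4.565e-05 to 0.285, and it was called in 2. The main fit keeps the 18-week library of mouse 5, which had most counts on 1 gene and Tchh at 30.3 CPM after TMM scaling.

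Between 22 and 6 weeks of age in NOR, none of the 3 genes was called (1.08% of all genes were called), with log2 differences of −3.25 ± 1.26 for Padi1 (adjusted p = 0.305), −1.18 ± 0.72 for Dlx3 (0.646) and 0.92 ± 0.56 for Tchh (0.641). Padi4, of the same deiminase family, was 4.20 ± 0.57 higher at 22 weeks (6.96e-04), and Msx1, the relative of Msx2, was 1.26 ± 0.29 higher (0.0355). Over all 5 ages Padi4 (1.689e-05), Wnt10b, a hair placode ligand (0.00553), and Msx1 (0.0375) were the 3 of 22 follicle genes called, against 8.24% of all genes. With the mouse as a block Padi4 kept its calls (0.00244 between 22 and 6 weeks), and Msx1 missed the threshold (0.0545 and 0.0557 over all ages).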

How the data were processed

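RNA of 120 scaffold INs was sequenced in 2 batches. The authors deposited expected counts per gene, written as whole numbers and not normalized, in 1 table per batch; the submitters' processing notes name cutadapt, FastQC, STAR, RSEM, MultiQC and GRCm38, with no versions or settings. CPM were computed per library total. The SE given for an edgeR log2 difference is its absolute value divided by the square root of its F value, and was not taken from the fit. Tests used the quasi-likelihood method of edgeR (version 4.0.16, R 4.3.3) after filterByExpr and TMM, with Benjamini-Hochberg adjustment over all genes tested and a threshold of 0.05, and DESeq2 1.42.0, other size factors, no filter, single batches, left-out mice and the mouse as a block were alternatives. The mouse numbers in the labels gave the pairing. Mean r of same-mouse deviations was −5e-04, 0.0110 and −0.0102 in NOR, nonprogressors and progressors, against 0.0028, −0.005 and 0.0027 between different mice. By this measure libraries of the same mouse were hardly more alike than others, so the pairing rests on the labels alone. None of 416 replicate pairs was a duplicate (lowest chi-square per degree of freedom 12.0). Tested on simulated data, edgeR recovered 26% of genes changed by 1 and 100% of those changed by 3 on the log2 scale for NOD against NOR (22794 genes), and 74% and 100% for progressor times (20797 genes). The simulation gave every gene the same spread, with no outlying library and no mouse effect, and changed only well-counted genes. These rates therefore do not hold for the 7 genes, which were uneven between libraries. Gene coordinates are from GENCODE M21. The 7 genes, all named whatever their values, and the 14 gene lists were chosen with earlier results of these data known, as were the tests; other list genes were named if called, at most the 4 with the smallest p per comparison, and those described in the 3 libraries and the members' closest genes beyond 5 were chosen after their values were seen. Krt85 was not analysed here. Authors' comparison columns were not used. Figures were drawn with matplotlib 3.10.9.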

Additional observations from a re-analysis of the deposited data

Results flagged for a closer look

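Dixon's criterion marks a value that stands apart from the rest of its group. Chance alone meets it in about 1 of 20 groups only where values are normally distributed. The CPM here were skewed, and 1 count in a group otherwise without counts also met it, so that rate does not apply. In groups of 4 to 10 libraries, 44 of 96 values examined stood apart by this criterion, and nothing is read from that share. Of these, 21 are the 7 genes in the 3 progressor libraries: Dlx3 at 70.9, 81.7 and 9.67 CPM, Padi3 at 74.7, 142 and 17.9, Padi1 at 15.6, 43.2 and 6.41, Tchh at 2583, 2178 and 292.5, Hoxc13 at 25.9, 27.0 and 3.79, Foxn1 at 15.7, 33.2 and 4.94 and Msx2 at 29.2, 28.2 and 5.93, in the order of mouse 2 at −3 weeks, mouse 7 at onset and mouse 10 at −5 weeks.

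Progressor mouse 2 also stood apart at 6 weeks of age with Dlx3 at 2.38, Tchh at 46.2, Hoxc13 at 0.679 and Msx2 at 1.19 CPM, and at −1 weeks with Dlx3 at 1.33, Tchh at 40.7, Hoxc13 at 0.575 and Foxn1 at 0.443 CPM. Among nonprogressors it was Padi1 at 0.740 CPM at 14 weeks (mouse 6), Msx2 at 1.06 at 18 weeks (mouse 3), Hoxc13 at 0.363 at 18 weeks (mouse 2), and at 10 weeks Hoxc13 at 0.0870 and Foxn1 at 0.0580 (mouse 3) and Msx2 at 0.0274 (mouse 4), with Foxn1 at 0.0565 at 22 weeks (mouse 1). Among NOR it was Msx2 of mouse 5 at 0.0421, 0.955 and 1.18 CPM at 6, 10 and 14 weeks, Dlx3 at 0.249 and Hoxc13 at 0.0416 at 18 weeks and Hoxc13 at 0.0300 at 10 weeks (mouse 1), and in mouse 2 Hoxc13 at 0.0460 at 6 weeks and Foxn1 at 0.0507 at 10 weeks. Most of the Hoxc13 and Foxn1 values of nonprogressors and NOR rest on a few counts in a group otherwise at 0. The Msx2 value of nonprogressor mouse 3 at 18 weeks is 5 counts in the library with the lowest total, 4722396.

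A nonprogressor library that entered no comparison, that of mouse 1 labelled 38 days after implantation, had 38.3 CPM of Tchh, above every NOR library (at most 3.60 CPM).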

How the results depend on the processing

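NOD against NOR had 0 of the 7 genes called, and 1 for nonprogressors only against NOR, for progressors only against NOR and without the 3 libraries, which was Tchh. Progressors against nonprogressors had 0, and 3 with DESeq2. Progressor times had 3, and 5 with no filter (Hoxc13 and Foxn1 being added), 0 with the mouse as the replicate block and 1 without the 3 libraries. Onset against −5 weeks had 0, and 1 without the 3 libraries. Nonprogressor ages had 1, and 0 within batch 1, 0 with the mouse as a block, and 0 to 1 with mice left out in turn. NOR ages had 1, and 2 with DESeq2 and 0 to 2 with mice left out. Besides Padi1, only Tchh was called over NOR ages in any alternative, in 2 of 10. The direction turned for Padi1 between NOD and NOR to −0.59 without progressor mouse 2 (up to 1.34 without other mice), −0.39 for nonprogressors only and −0.69 without the 3 libraries, for Dlx3, Padi1 and Msx2 between progressors and nonprogressors to −0.20, −0.38 and −0.24 without the 3 libraries, and for Padi1 from −5 weeks to onset to −0.20 without the 3 libraries and −0.23 within batch 1. Leaving out the 3 libraries was chosen after seeing the data. The block changed no other call of the 7 genes. Of the values of single genes, 304 kept their direction and side of the threshold, 12 fell short of it, 10 newly passed it and 8 turned. Over all genes, the number called ran from 1117 to 2723 for NOD against NOR (1914 in the report), 0 to 131 for progressors against nonprogressors (0), 248 to 1832 for progressor times (942), 0 to 1825 for onset against −5 weeks (364), 122 to 2249 for nonprogressor ages (1084), 481 to 3509 for NOR ages (1617) and 21 to 518 for NOR 22 against 6 weeks (212). Where not stated above, the cause was not tested. DESeq2 gave no adjusted p for the genes called in progressor times and none for onset against −5 weeks. At the depth of these libraries Hoxc13 and Foxn1 could be read only where they were above a few counts.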

Other observations

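The 6 nonprogressor libraries labelled by days after implantation are not linked to mice of the time series. At 38 days, mouse 1 had Tchh at 38.3 CPM with Dlx3 at 1.66, Padi3 at 0.686, Padi1 at 1.64, Msx2 at 1.54, Hoxc13 at 0.172 and Foxn1 at 0.153 CPM, so all 7 genes had counts in it. Mouse 2 at 38 days had Tchh at 1.11 and Msx2 and Hoxc13 at 0, but Padi1 at 2.93 CPM, the highest Padi1 value outside the 3 progressor libraries. At 31 days Tchh was at 1.22 and 1.44 CPM and at 108 days at 3.11 and 2.10.

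Msx2 alone, compared with all other genes over the 74 and 46 libraries, was closest to Bglap3 (Spearman's rho 0.817 and 0.897), Tfap2c, a transcription factor of luminal epithelia (0.761 and 0.939), and Epn3 (0.760 and 0.938), whereas Dlx3 and Padi3 were among the closest genes of each other. Padi1 was closest to Lad1, an epithelial basement membrane gene (0.784 and 0.632), and to Prdm1 (0.703 and 0.626). Hoxc13 was closest to the sheath keratin Krt25 (0.490 and 0.386). These coefficients are descriptive, over libraries that share mice and depth, and these genes were picked once their values were known.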
